A study of Mus musculus with 8 samples.

Results

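The genes described here encode 10 surface proteins through which antigen-presenting cells and other cells stimulate or restrain lymphocytes: Cd80, Cd86, Cd83, Cd40, Cd72, Cd274, Pdcd1lg2, Havcr2, Icosl and Cd276. They are a list of names, and all 10 were matched through GENCODE M21 to 1 row each among the 24821 genes measured. They were selected on names, with the normalized counts of WT and knockout (KO) libraries already known and no threshold on any value. Their differences between KO and WT are therefore a description, given with errors and without p-values, and support nothing further. RNA came from the epididymal fat pad (eWAT) of male C57BL/6 mice, in 4 wild type (WT) and 4 Ccdc92 KO libraries. KO mice and WT littermates of matching age were fed for 14 weeks on a high-fat diet, in which fat supplied 60%, protein 20% and carbohydrate 20%. Both groups received that diet, and the labels used here state neither the age at collection nor which part of Ccdc92 was deleted. No label says that each library came from a separate mouse, and p-values therefore speak of the spread among these libraries alone, part of which may be technical.

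T cells need a second signal beside antigen to become active. CD80 and CD86 on antigen-presenting cells give it through CD28 and withhold it through CTLA-4, and the related B7-family ligands ICOSL, PD-L1 (Cd274) and PD-L2 (Pdcd1lg2) bind ICOS or the inhibitory receptor PD-1. CD40 receives help from T cells through CD40 ligand, while CD72 and TIM-3 (Havcr2) carry inhibitory signals into the cells that bear them. Fat of obese animals holds many macrophages, together with dendritic cells, T cells and B cells, and several of these surface genes are known from more than 1 of those cell types.

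Upstream sequence was found in the RefSeq promoter table (GRCm38.p6) for 7 of the 10 genes, all except Cd86, Cd83 and Cd40. The 250 bases before the start given in that table are shown for Cd72, Havcr2 and Cd276, the genes with an entry that were lower in KO with no overlap between groups. Capitals mark AGGAAGT or its reverse complement ACTTCCT, the core recognised by the myeloid and B cell factor PU.1. They are Cd72 at chr4:43454627-43454876 (minus strand), Havcr2 at chr11:46454681-46454930 (plus strand) and Cd276 at chr9:58555034-58555283 (minus strand). These starts are not always those of GENCODE M21. The Cd276 window lies wholly inside the GENCODE span of that gene (58524298 to 58555437). The Cd80 window, searched but not shown, also lies inside its gene.
Cd72: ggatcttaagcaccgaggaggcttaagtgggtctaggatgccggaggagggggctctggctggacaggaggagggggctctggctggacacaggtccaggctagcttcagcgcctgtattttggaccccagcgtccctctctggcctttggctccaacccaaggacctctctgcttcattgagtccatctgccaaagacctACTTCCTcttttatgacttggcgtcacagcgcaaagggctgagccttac
Havcr2: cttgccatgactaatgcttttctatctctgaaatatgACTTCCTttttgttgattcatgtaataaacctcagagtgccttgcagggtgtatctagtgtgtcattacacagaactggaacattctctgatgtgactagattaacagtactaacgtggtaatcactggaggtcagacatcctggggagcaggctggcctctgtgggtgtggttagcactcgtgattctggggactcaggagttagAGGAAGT
Cd276: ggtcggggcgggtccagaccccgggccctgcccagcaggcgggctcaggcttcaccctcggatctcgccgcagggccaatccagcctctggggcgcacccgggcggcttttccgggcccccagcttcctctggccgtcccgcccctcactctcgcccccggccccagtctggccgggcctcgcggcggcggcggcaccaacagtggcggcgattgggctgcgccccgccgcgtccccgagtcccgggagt
The core occurred once in Cd72, beginning at position -49, and in Havcr2 at -213 and -7, where -1 is the last base before the start. No other of the 7 sequences held it, against 7.8% of 27025 promoter windows of the same length. Both strands were also searched for the interferon response core, GAAA and GAAA parted by NN (3.04% of all windows), the NF-kappaB form GGGNNTTCC (4.88%) and the STAT form TTCNNNGAA (7.18%), and none of the 7 windows held these letters. A match is a description of letters and not of binding. The Cd276 window was 77.6% G and C, against 58% for Cd72 and 44.8% for Havcr2.

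Reads assigned to genes ran from 23681088 to 33817478 per library. The targeted gene Ccdc92 was at 54.1 to 105.8 normalized counts in WT libraries and 4.9 to 9.7 in KO libraries (limma adjusted p = 0.000383). That the tissue was fat, though not which depot, was checked against 8 adipocyte markers such as Adipoq and Plin1. All were detected and all were higher in KO (sums of normalized counts between 144500 and 304500 for WT, 622400 and 895600 for KO). Transcripts of the neighbouring epididymis also differed. Of 6 epididymal markers, 4 were tested and 3 were lower in KO, with sums between 31950 and 106000 for WT and between 9.7 and 755.7 for KO, while Lcn9 was at 0 in every WT library. WT replicate 4 had a mean log2 level of these markers of 6.35, against 8.26 to 9.12 in the other WT libraries, and KO replicate 3 one of 6.53, against 1.12 to 2.46 in the other KO libraries. The part of that signal in the results that follow was not tested. Counts without both libraries are given beside the main ones. Those counts do not remove the signal, because the libraries left (8.26 to 9.12 in WT, 1.12 to 2.46 in KO) lie farther apart in it.

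Over all 17798 genes tested, limma (Benjamini-Hochberg threshold of 0.05) called 41.7%, made up of 20.2% higher in KO and 21.5% lower. Quantile normalization shifted the median over all genes by 0.104 log2 units and turned the split from 3592 higher and 3831 lower genes to 4593 and 3257. Of the 10 surface genes 9 were tested, meaning that they reached 10 normalized counts in 4 or more libraries. Cd72, Havcr2, Cd83, Cd276 and Cd40 were past the threshold and lower in KO, and the libraries of the groups did not overlap in these 5, as in 21.1% of all genes tested for this direction. Cd80, Cd86, Cd274 and Icosl were not past it. Pdcd1lg2 fell short of the filter. No inference is drawn from the count of 5, because the names were chosen with this contrast known. Without WT replicate 4 and KO replicate 3, the same 5 genes were past the threshold, beside 33.4% of all genes. In whole tissue, fewer cells of a type and less RNA per cell cannot be told apart.

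**Figure D1:**
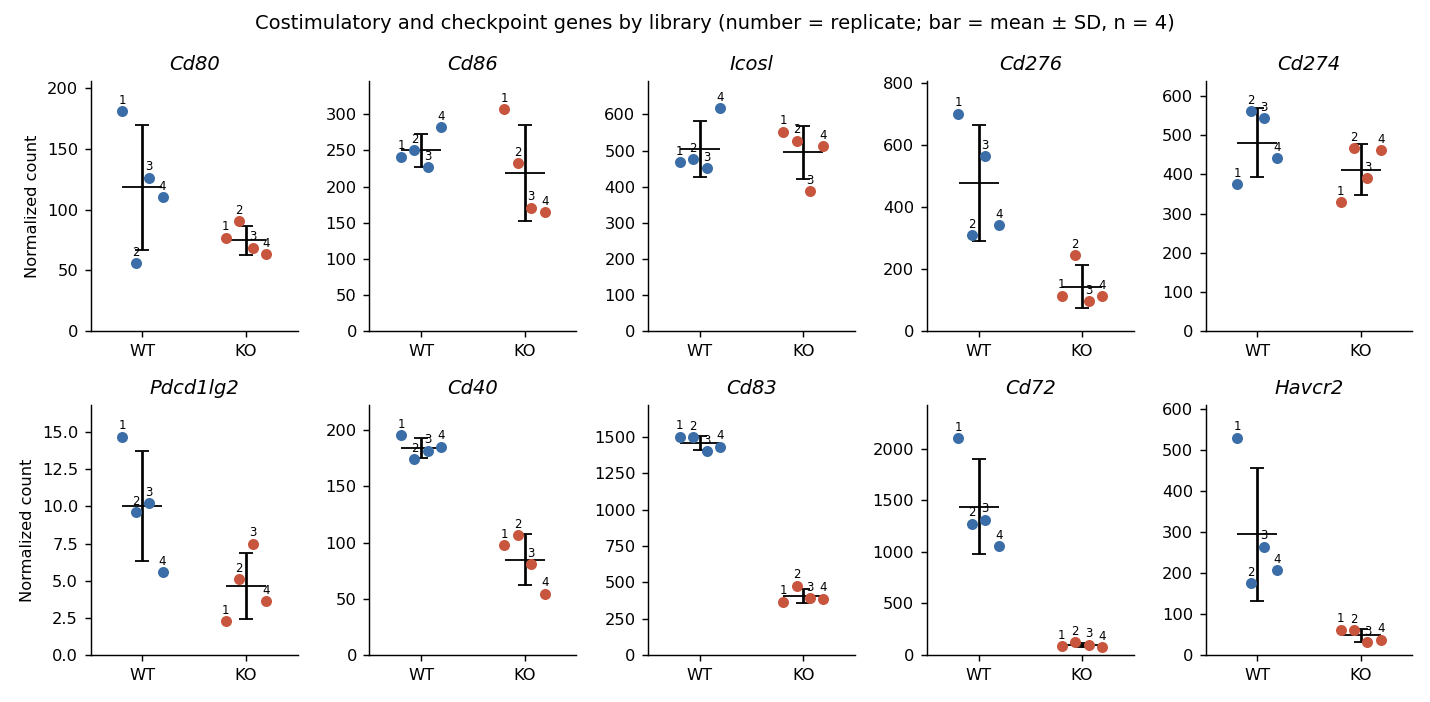
Normalized count (vertical axes, each from 0) of the 10 genes in the 4 WT (blue) and 4 KO (red) libraries, with replicate numbers beside the points and the mean ± SD as bars. Cd72, Havcr2, Cd83, Cd276 and Cd40 show no overlap between groups, and the other 5 genes overlap.

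Among the ligands of CD28 and CTLA-4, Cd80 lies on chromosome 16 from 38455561 to 38496335 (GRCm38, plus strand) and Cd86 on the same chromosome from 36603869 to 36666081 (minus strand). Cd80 had normalized counts of 180.7, 55.8, 126.2 and 110.5 in WT replicates 1 to 4 and 77, 90.6, 68.8 and 63.1 in KO replicates 1 to 4. The groups overlapped because WT replicate 2 was the lowest of all 8 libraries. The log2 fold change was -0.55 (SE 0.33, 95% interval -1.30 to 0.21). Single WT libraries moved it: it was -0.87 and past the threshold without WT replicate 2, and -0.31 and not past it without WT replicate 1. Under quantile normalization it was -0.28. Cd86 was at 241.3, 250, 227.4 and 281.8 in WT and 306.8, 232.4, 170.9 and 164.9 in KO. KO replicate 1 held the highest value and KO replicates 3 and 4 the lowest, so the KO libraries enclosed the WT range. Its log2 fold change was -0.23 (SE 0.20), with an interval from -0.69 to 0.22, that is, from 1.62-fold lower to 1.17-fold higher.

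The ICOS ligand gene Icosl (chromosome 10, 78069302 to 78083913, plus strand) had nearly equal means, 503.7 ± 76.9 in WT and 495 ± 73.2 in KO (SD, n = 4). Individual libraries were at 467.8, 477, 452.1 and 618 in WT and at 552.7, 527.3, 388 and 511.8 in KO. WT replicate 4 held the highest value and KO replicate 3 the lowest. The fitted log2 fold change was -0.03 (SE 0.14), and its 95% interval ran from -0.35 to 0.30, which leaves room for a fall of 1.28-fold or a rise of 1.23-fold. Its sign depended on single libraries and on scaling: it was 0.08 without WT replicate 4, 0.09 without KO replicate 3 and 0.05 under quantile normalization. Cd276 encodes B7-H3, a B7-family protein found on many non-lymphoid cells (chromosome 9, 58524298 to 58555437, minus strand). Its WT libraries were at 702.7, 309.7, 564.4 and 341.8 and its KO libraries at 114.9, 246.1, 97.8 and 112.8. KO replicate 2 was more than 2-fold above every other KO library and still below every WT library. The KO mean was 29.8% of the WT mean, and the log2 fold change was -1.76 (SE 0.36), or -2.05 without KO replicate 2.

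The genes for the ligands of PD-1 stand 22.8 kb apart on chromosome 19, Cd274 from 29367455 to 29388095 and Pdcd1lg2 from 29410919 to 29471161, both on the plus strand. Their levels differed widely. Cd274 had normalized counts of 375.2, 560.7, 544 and 441 in WT and 329.8, 466.6, 390.2 and 460.8 in KO. The groups overlapped over most of their range, and replicate 1 was the lowest library of each group. The log2 fold change of Cd274 was -0.22 (SE 0.16, 95% interval -0.59 to 0.16), and with library weights it was -0.45 and past the threshold. An antisense gene, AC119228.1, shares 511 exon bases with Cd274, and its own values were low, 14.4 to 38.1 in WT and 19.3 to 31.6 in KO. Whether reads were counted by strand is not known from the labels. Pdcd1lg2 had 16, 10, 11 and 6 reads in WT and 2, 6, 7 and 3 in KO. Its 43 WT reads have an exact 95% Poisson interval of 31.1 to 57.9 and its 18 KO reads one of 10.7 to 28.4, which covers counting error only. The libraries overlapped. The filter left Pdcd1lg2 out of the main fit, and with no filter its log2 fold change was -0.99 (SE 0.42, 95% interval -1.94 to -0.04).

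Cd40 encodes the TNF receptor family member that answers CD40 ligand (chromosome 2, 165055627 to 165072948, plus strand). It had 195.4, 174.1, 181.9 and 185.4 in WT and 97.7, 106.8, 80.6 and 54.6 in KO. The WT libraries lay close together, with a coefficient of variation of 4.8%, while the KO libraries spread by 27%. Every KO value was below every WT value, and the log2 fold change was -1.15 (SE 0.21, 95% interval -1.63 to -0.67). Cd83 encodes an immunoglobulin-family protein best known from mature dendritic cells (chromosome 13, 43784775 to 43803132, plus strand). Its values were 1503.5, 1497.3, 1403.6 and 1434.4 in WT and 367.7, 477.7, 389.1 and 388.1 in KO. Spread within groups was small, 3.34% in WT and 12.1% in KO, and the KO mean was 27.8% of that in WT. The log2 fold change was -1.85 with an SE of 0.09, the smallest SE of the 9 fitted genes.

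Cd72 had the lowest KO level relative to WT of all 10 genes. It encodes a lectin-like inhibitory co-receptor known from B cells, whose cytoplasmic tail recruits the phosphatase SHP-1 (chromosome 4, 43446462 to 43454628, minus strand). Normalized counts were 2105.2, 1274.2, 1313.5 and 1054.3 in WT and 85, 123.9, 100 and 74 in KO. The highest KO library, at 123.9, was far below the lowest WT library, at 1054.3. The KO mean was 6.66% of the WT mean, with a log2 fold change of -3.87 (SE 0.23, 95% interval -4.40 to -3.34). The opposite-strand gene Tesk1 shares 1423 exon bases with Cd72. Tesk1 was at 1059 to 1304.4 in WT and 672.9 to 853.8 in KO, or -0.63 on the log2 scale (SE 0.10, limma adjusted p = 0.00172). Without strand, shared reads of the pair cannot be told apart, so the Cd72 level in KO may include reads of Tesk1 and the reverse.

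Havcr2 encodes TIM-3, an inhibitory receptor of exhausted T cells that macrophages and dendritic cells also carry (chromosome 11, 46454935 to 46481255, plus strand). Its WT libraries were at 531.1, 176, 264.6 and 206.9 and its KO libraries at 62.1, 59.8, 32.2 and 37.6. WT replicate 1 was 3.02-fold above WT replicate 2, yet the lowest WT library was well above the highest KO library. The log2 fold change was -2.51 (SE 0.37) and was -2.18 without WT replicate 1. In WT, Cd80, Havcr2 and Cd276 shared 1 order of libraries, with replicate 1 highest, then 3, 4 and 2. Icosl and Cd86 shared another, with replicate 4 highest, then 2, 1 and 3.

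Levels of different genes were compared per length, as normalized counts per kilobase of annotated exon. In WT, Cd83 (567.5) and Cd72 (419.9) stood highest and their ranges over libraries overlapped. Cd274 (132.6), Cd276 (131.1), Icosl (109) and Havcr2 (108.3) followed, with each range overlapping the next and that of Havcr2 overlapping Cd86 (68.3). Cd40 (54.1), Cd80 (31.9) and Pdcd1lg2 (5.12) came last, each with a range below that of the gene before it. In KO, Cd83 was again highest at 157.7, but Cd274 (113.7) and Icosl (107.1) came next. Cd72 at 28 then lay between Cd276 (39.1) and Cd40 (24.9), with all ranges from Cd86 (59.8) down to Cd80 (20.2) and Havcr2 (17.6) overlapping their neighbours. Pdcd1lg2 was lowest in both groups, at 2.37 in KO.

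**Figure D2:**
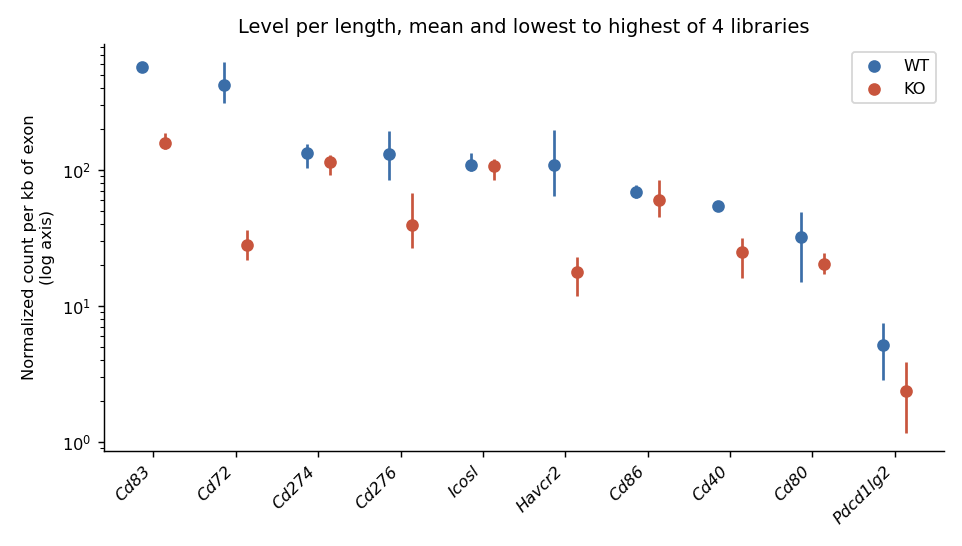
Normalized count per kilobase of exon (vertical axis, logarithmic) of the 10 genes, ordered by their WT mean, with points for the mean and lines from the lowest to the highest of 4 libraries in WT (blue) and KO (red). Cd83 and Cd72 stand highest in WT, and Cd72 falls among the low genes in KO.

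The 10 genes were set beside markers of cells that could carry them. Macrophage markers (12 genes, among them Adgre1, Cd68 and Csf1r) were lower in KO in 11 of 12, with sums between 138400 and 293100 for WT and between 46440 and 73430 for KO and a median log2 fold change of -1.60. Markers of lipid-associated macrophages, such as Trem2, were lower in 8 of 8, with sums of 98370 to 356200 against 11800 to 23000 and a median of -4.20. Dendritic cell markers had 9 of 10 genes tested, 2 higher and 0 lower in KO, with sums of 2773 to 3767 against 3533 to 4132 and a median of -0.24. At an unadjusted p under 0.05, limma had 2 of the 9 lower. Fscn1 alone made up most of the dendritic sums (mean 2091 in WT and 2389 in KO). B cell markers were lower in 2 of 10 (25210 to 49910 against 9070 to 39290) with a median of -1.60, and at an unadjusted p under 0.05 limma had 5 of the 10 lower. Ighm alone made up most of the B cell sums (mean 32530 in WT and 26360 in KO, log2 fold change -0.45). T cell markers were lower in 6 of 10 (1225 to 2446 against 540.9 to 1462), with a median of -1.25 and 8 lower at an unadjusted p under 0.05. Mast cell markers such as Cpa3 were lower in 6 of 6 (3870 to 11150 against 944.7 to 1277), with a median of -3.30. Fibroblast and progenitor markers were lower in 5 of 8 (165400 to 260200 against 77250 to 154500), with a median of -0.52. Endothelial markers such as Pecam1 were higher in 3 of 6 (13030 to 27710 against 30050 to 34170), with a median of 0.60. Neutrophil markers (3 of 6 tested, 1 higher, sums of 469.7 to 520.6 against 285 to 959.9) and mesothelial markers (5 tested, 0 called by limma, edgeR or DESeq2, also 0 by limma at an unadjusted p under 0.05, sums of 1380 to 5989 against 1813 to 13070) overlapped in their sums. No measured marker of these 10 lists was at 0 in all libraries of a group. Cd207, the dendritic marker that fell short of the filter, had 18 reads over all WT libraries and 1 over all KO libraries. It is kept in the dendritic sums and in the mean log2 level used below. Over all genes tested the median was -0.01, with 21.5% called lower and 20.2% called higher. The part of cell numbers in the values of the surface genes was not tested.

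Each gene was then expressed relative to the mean log2 level of the macrophage markers in its own library, as a description of how far it moved apart from them. That mean itself differed by -1.68 log2 units between KO and WT. Any gene that fell less, or did not change, therefore rises on this scale by subtraction alone. On that scale Cd72 went from -2.72 ± 0.22 in WT to -4.91 ± 0.30 in KO, and Havcr2 from -5.10 ± 0.42 to -5.92 ± 0.21 (SD, n = 4), both lower in KO without overlap. Cd83 (-2.65 ± 0.29 and -2.82 ± 0.30) and Cd276 (-4.34 ± 0.30 and -4.42 ± 0.48) overlapped between groups, so their fall was close in size to that of the macrophage markers. Icosl, Cd274, Cd86, Cd80 and Cd40 were above all WT libraries in each of the 4 KO libraries relative to macrophage markers, by 1.66, 1.47, 1.45, 1.13 and 0.53 log2 units. The dendritic mean differed by only -0.22 log2 units between KO and WT, so the dendritic scale largely repeats the values before scaling. Relative to the dendritic markers the groups overlapped for Cd86, Cd274, Icosl, Cd80 and Pdcd1lg2, with Cd86 at 1.09 ± 0.12 in WT and 1.07 ± 0.21 in KO. Cd83, Cd40, Cd72, Havcr2 and Cd276 were lower in KO without overlap on the dendritic scale, by -1.64, -0.93, -3.65, -2.30 and -1.54 log2 units. The lipid-associated macrophage markers had a larger fall, with a mean log2 difference of -3.62, so genes with a smaller fall rise against them in the same way. On that scale Cd72 overlapped between groups (-3.14 ± 0.42 in WT and -3.39 ± 0.35 in KO). Havcr2 was higher in KO without overlap (by 1.11 log2 units), as were Cd83 (1.77), Cd276 (1.86) and the other 6 genes (2.47 to 3.59). Relative to the B cell markers, Cd72 went from 2.31 ± 0.93 in WT to -0.04 ± 0.97 in KO without overlap, and every other gene overlapped. Relative to the fibroblast markers, Cd72 (-3.26), Havcr2 (-1.90), Cd83 (-1.24), Cd276 (-1.15) and Cd40 (-0.54) were lower in KO without overlap. Icosl (0.58) was higher without overlap on that scale, and the remaining genes overlapped. The direction of Havcr2, Cd83, Cd276 and Cd40 thus depended on the marker list. Whether the groups stood apart also depended on the list, for Cd72 as for the other genes.

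**Figure D3:**
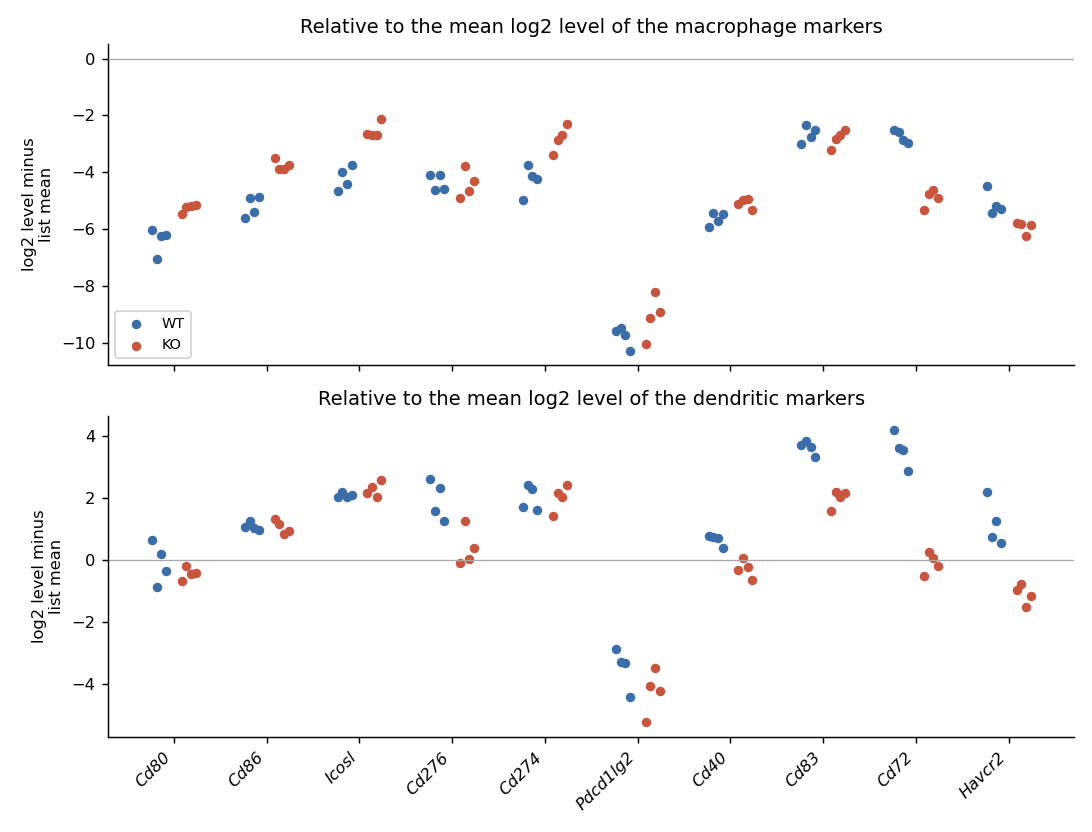
Log2 level of each gene minus the mean log2 level of the macrophage markers (top) or the dendritic markers (bottom) in the same library, for 4 WT (blue) and 4 KO (red) libraries. Icosl, Cd274 and Cd86 sit higher in KO on the macrophage scale and overlap on the dendritic scale, while Cd72 sits lower in KO on both. The macrophage markers were themselves lower in KO, so a gene without change rises on their scale. The dendritic mean differed little (-0.22), so the bottom panel largely repeats the values before scaling. Relative to lipid-associated macrophage markers, which are not drawn, Cd72 overlaps between groups.

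For each gene the closest patterns among 14384 others with a mean of at least 50 were found by the root-mean-square (RMS) difference of centred log2 levels over the 8 libraries. Icosl was closest to Clec9a, a receptor of cross-presenting dendritic cells, at an RMS difference of 0.054, and to Shb at 0.084. Clec9a had 127.5, 121.2, 118.8 and 152.6 in WT and 135.6, 139.3, 97.8 and 124.9 in KO libraries, with WT replicate 4 high and KO replicate 3 low as in Icosl. Cd40 was closest to Chaf1a (0.089) and Smc2 (0.105), which serve chromatin assembly and chromosome condensation in dividing cells. Cd83 was closest to Cdt1 (0.138), a DNA replication licensing factor, and Frk (0.155). Cd80 was closest to the transcription factor Batf (0.143) and the receptor Cd244a (0.152), and Cd86 to Gm37164 (0.094) and Chst2 (0.109). Cd274 was closest to Gm6563 (0.132) and Papss1 (0.138), and Cd276 to C920009B18Rik (0.147) and Emp3 (0.185). Havcr2 and Cd72 had larger distances to their nearest genes than those above. The RMS difference was not scaled to the size of a gene's change, so distances do not rank how well different genes are matched. Havcr2 was nearest to Gm15931 (0.223) and the phagosomal metal transporter Slc11a1 (0.232), and Cd72 to Zranb3 (0.249) and the B cell adaptor Stap1 (0.267). For Pdcd1lg2, whose few reads add counting noise, the nearest were Riox1 (0.268) and Srgn (0.300).

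The binding partners of these proteins were gathered in a list of 10 genes. This list and the further lists below were chosen with earlier results of these data known. Their adjusted p-values are therefore a description, like the values of the surface genes. Of the 10 partners 9 were tested, and 3 were lower in KO and 0 higher, against 41.7% of all genes called. The median log2 fold change was -0.54. At an unadjusted p under 0.05, limma had 2 of the 9 higher, and DESeq2 called 2 higher. Without WT replicate 4 and KO replicate 3 the list had 3 calls, beside 33.4% of all genes. Cd28, the costimulatory receptor for CD80 and CD86, had 144.9, 87.5, 104.9 and 142.3 in WT and 28.7, 36.7, 60.2 and 64.3 in KO. All KO values were below all WT values, for a log2 difference of -1.36 (SE 0.30, limma adjusted p = 0.00776). Its inhibitory counterpart Ctla4 was at 17.3 to 34.9 in WT and 9.2 to 20.6 in KO (-0.54, SE 0.34, limma adjusted p = 0.226). Pdcd1, which encodes PD-1, had 89, 47.1, 71.5 and 74 in WT and 23, 19.7, 38.7 and 23 in KO. The groups did not overlap (-1.41, SE 0.28, limma adjusted p = 0.00504), whereas those of its ligand gene Cd274 did. Whether the changes of Pdcd1 and Cd274 differ was not tested.

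Sema4d encodes CD100, the ligand of CD72. It had 3098.7, 1422.3, 2386.7 and 1543.1 in WT and 266.6, 305.1, 289.1 and 154 in KO. The lowest WT library was far above the highest KO library, and the log2 difference was -3.03 (SE 0.30, limma adjusted p = 0.000415). The receptor gene Icos was at 26.9 to 42.2 in WT and 12 to 36.5 in KO (-0.71, SE 0.34, limma adjusted p = 0.129), with KO replicate 3 inside the WT range. Cd40lg had 46 reads in all WT libraries and 25 in all KO libraries and fell short of the filter (with no filter, -0.81, SE 0.60, limma adjusted p = 0.334). KO replicate 3 held 15 of those 25, and that library also had the highest T cell marker level of the KO group. The ligands described for TIM-3 were not past the threshold: galectin-9 (Lgals9) at 0.22 (SE 0.09, limma adjusted p = 0.0741), Ceacam1 at 0.26 (SE 0.21, limma adjusted p = 0.34) and Hmgb1 at 0.16 (SE 0.07, limma adjusted p = 0.089). Lgals9 passed without KO replicate 4 (0.30, limma adjusted p = 0.0185), by edgeR and DESeq2, under quantile normalization and with library weights, Hmgb1 by DESeq2, Icos with library weights and Ceacam1 without WT replicate 1 (0.46, limma adjusted p = 0.0357). Rgmb, a partner of PD-L2, was at 940.1 to 1100.8 in WT and 884.8 to 1246.7 in KO, with a 95% interval of -0.26 to 0.26 around 0. T cell markers were lower in KO in 6 of 10 alongside Cd28 and Pdcd1, and their part in these values was not tested.

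**Figure D4:**
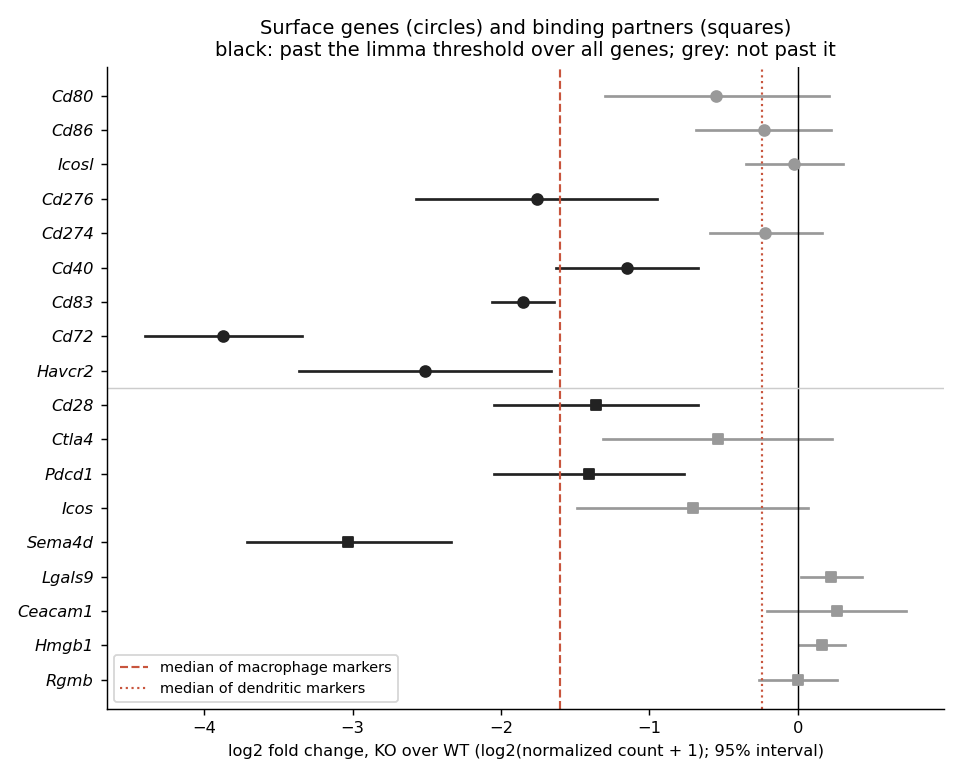
Log2 fold change of KO over WT with its 95% interval (horizontal axis) for the 9 tested surface genes (circles) and 9 tested partners (squares), black where past the limma threshold over all genes. Cd72 at -3.87 and its ligand gene Sema4d at -3.03 lie farthest to the left, and the red lines mark the medians of the macrophage (-1.60) and dendritic (-0.24) markers.

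Other checkpoint genes went both ways. Of 23 listed, 22 were tested, 10 were lower and 3 higher in KO, with a median of -0.84. Over all genes tested, 21.5% were called lower and 20.2% higher. Leaving out WT replicate 4 and KO replicate 3 gave 11 calls, against 13, beside 33.4% of all genes. The largest falls were in Lair1, an inhibitory collagen receptor of leukocytes (-2.90, SE 0.22, limma adjusted p = 0.000193), Cd200r1, the myeloid receptor for CD200 (-2.57, SE 0.33, limma adjusted p = 0.000852), and Sirpa, the receptor for the CD47 signal that restrains phagocytosis (-2.33, SE 0.19, limma adjusted p = 0.000239). Sirpa went from 13464.3 to 20776.4 in WT to 2661.4 to 4278.7 in KO. The genes that rose were Timd4, a phosphatidylserine receptor of resident macrophages (1.39, SE 0.26, limma adjusted p = 0.004), the MHC class II receptor Lag3 (0.71, SE 0.15, limma adjusted p = 0.0057) and Pvr, a ligand of TIGIT (0.58, SE 0.09, limma adjusted p = 0.00163). Timd4 was at 28.4, 32.7, 35.3 and 57.1 in WT and 127.6, 75.2, 91.4 and 106.7 in KO. Lag3 was at 106.4, 126.9, 134.6 and 148.9 in WT and 178.1, 235.9, 210.7 and 223.1 in KO. These 2 genes were higher in every KO library, opposite to Havcr2 and Pdcd1.

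The TNF-family costimulatory list held 12 genes, of which 8 were tested, 2 lower and 1 higher in KO, with a median of -0.24. Over all genes tested, 41.7% were called. These were low genes near the threshold. Tnfrsf9, which encodes 4-1BB, was at 16.3 to 25.3 in WT and 7.3 to 13.8 in KO (-1.05, SE 0.30, limma adjusted p = 0.0228), and Tnfrsf4, which encodes OX40, at 27.9 to 46.8 and 16.1 to 24.3 (-0.88, SE 0.25, limma adjusted p = 0.0233). Tnfrsf18, which encodes GITR, rose from 69.6 to 93.6 in WT to 101.7 to 157.7 in KO (0.57, SE 0.18, limma adjusted p = 0.0359). Leaving out single libraries ended each of these calls. The limma adjusted p of Tnfrsf9 was 0.0575 without WT replicate 3, 0.0571 without WT replicate 4, 0.051 without KO replicate 2 and 0.0519 without KO replicate 3. That of Tnfrsf4 was 0.0553 without WT replicate 1, 0.0559 without WT replicate 4, and 0.0562, 0.0523 and 0.0515 without KO replicates 1, 2 and 3. That of Tnfrsf18 was 0.0762, 0.0971 and 0.0506 without WT replicates 2, 3 and 4, and 0.0765 and 0.0758 without KO replicates 1 and 4. The number of calls in the list went from 3 to 0 without WT replicate 4, and to 1 without WT replicate 3, KO replicate 1 or KO replicate 2. It was also 0 when KO replicate 3 was left out with WT replicate 4, beside 33.4% of all genes. Under quantile normalization the limma adjusted p was 0.0734 for Tnfrsf9 and 0.116 for Tnfrsf4.

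Genes that carry or restrain the CD40 signal to NF-kappaB were lower in 8 of 14 and higher in 1, with a median of -0.45. Over all genes tested, 21.5% were called lower and 20.2% higher. The 9 calls of the list became 6 when WT replicate 4 was left out, alone or with KO replicate 3, and 6 without WT replicate 1. Without WT replicate 4 and KO replicate 3, 33.4% of all genes were called. Rel, the NF-kappaB subunit c-Rel of lymphoid and myeloid cells, had 527.5, 338.5, 434.4 and 427.9 in WT and 183.9, 196.5, 153.7 and 158.9 in KO. The groups did not overlap, and the log2 difference was -1.30 (SE 0.15, limma adjusted p = 0.000627). The adaptor Traf5 (-0.95, SE 0.16, limma adjusted p = 0.00268) and the ubiquitin ligase Birc3 (-0.73, SE 0.14, limma adjusted p = 0.004) followed. The related ligase Birc2 rose slightly (0.28, SE 0.09, limma adjusted p = 0.0342). Its limma adjusted p was 0.0704, 0.0971 and 0.0507 without WT replicates 1, 3 and 4 and 0.0648, 0.0746 and 0.0633 without KO replicates 1, 3 and 4, and 0.0951 without both WT replicate 4 and KO replicate 3.

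A last list covered 16 genes that set the surface level or signalling of these proteins. Of these, 6 were lower and 2 higher in KO, with a median of -0.21, against 41.7% of all genes called. Without WT replicate 4 and KO replicate 3 there were 7 calls, against 8, beside 33.4% of all genes. Ptpn6, which encodes the phosphatase SHP-1 recruited by CD72, had 3251, 2125.3, 2753.3 and 2221.9 in WT and 776.8, 776.8, 528.8 and 392.9 in KO. The log2 difference was -2.10 (SE 0.24, limma adjusted p = 0.00062), with no overlap. Its relative Ptpn11, which encodes SHP-2, rose by 0.54 (SE 0.10, limma adjusted p = 0.00307). March1, the ubiquitin ligase that removes CD86 and MHC class II from the surface, was lower by a log2 difference of -1.12 (SE 0.17, limma adjusted p = 0.00146). It was at 612.6 to 906.3 in WT and 278.9 to 430.7 in KO, beside overlapping values of Cd86. The chains of the interferon-gamma receptor went opposite ways, Ifngr1 at 0.49 (SE 0.09, limma adjusted p = 0.00344) and Ifngr2 at -0.91 (SE 0.18, limma adjusted p = 0.0049). Macrophage markers, lower in 11 of 12, moved the same way as the falls in all 4 of these further lists, and their part was not tested.

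**Figure D5:**
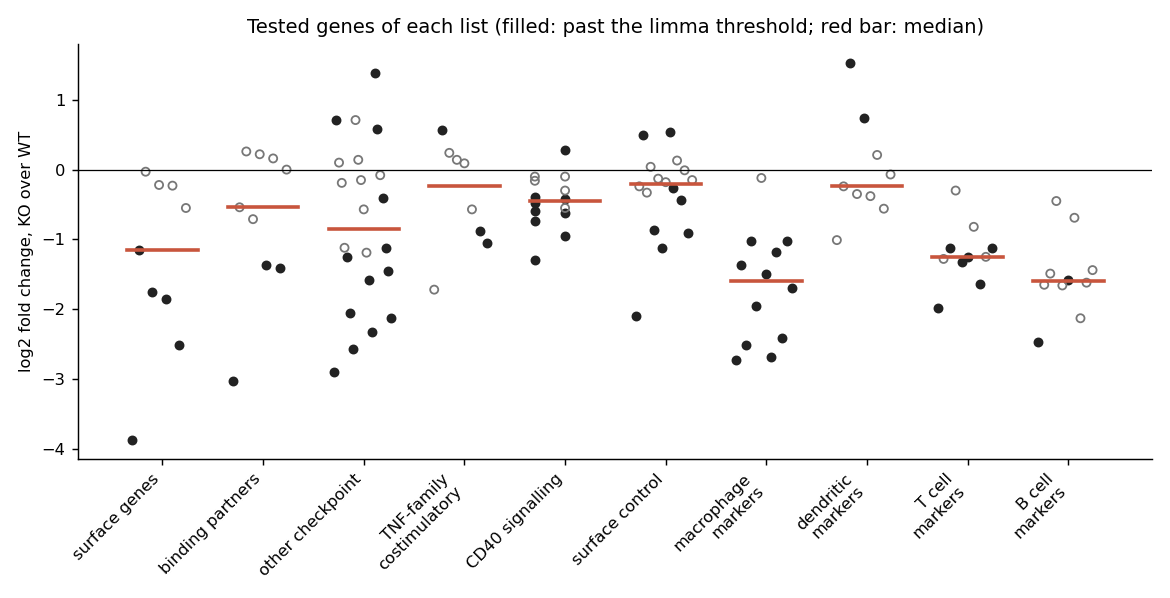
Log2 fold change of KO over WT (vertical axis) for the tested genes of the surface gene list, its partners, 4 related lists and 4 marker lists, filled where past the limma threshold over all genes, with the median of each list as a red bar. The medians run from -1.60 for the macrophage and B cell markers to -0.21 for the surface control list.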

How the data were processed

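Gene expression in 4 WT and 4 KO fat libraries was deposited as a signal per gene, which the values show to be read counts divided by 1 factor per library. Per the submitters' processing notes, STAR 2.7.7, DESeq2 and GRCm38.p6 belong to the authors' processing, in roles that those notes do not state. The sources used here do not give the counter, strand setting, annotation or filters. Dividing each library by its smallest value above 0 gave whole reads for 100% of values (tolerance 0.01 of a read). Of 24821 identifiers, 24802 matched GENCODE M21 without version. The main test was limma 3.58.1 (R 4.3.3) on log2(normalized count + 1), with 1 term for group and limma's trend and robust options. It took genes at 10 or more in at least 4 libraries, with Benjamini-Hochberg adjustment over all of them and a threshold of 0.05. Fold changes on this scale understate low genes. Since normalized values are not counts, edgeR 4.0.16 and DESeq2 1.42.0 on the recovered reads were alternatives, and edgeR called 7435 genes. On simulated counts the fit called 8% of 1.5-fold, 46% of 2-fold, 82% of 4-fold and 92% of 8-fold changes (50 genes each). Far fewer genes changed there than were called here. A gene not past the threshold may thus have changed by 1.5-fold or 2-fold. The members and lists were chosen with earlier results of these data known. Named were all members and partners, and from each further list up to 3 called genes per direction by size of change. Lengths are merged GENCODE M21 exons.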

Additional observations from a re-analysis of the deposited data

Results flagged for a closer look

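In 5 of 78 groups of 4 libraries, taken over the 39 named genes, 1 library lay farther from the others than Dixon's critical value of 0.829 for its gap over the whole range. Chance marks about 1 in 20 such groups. Cd276 in KO replicate 2 was 246.1, against 97.8 to 114.9 in the other KO libraries, and Icosl in WT replicate 4 was 618, against 452.1 to 477. Ctla4 in KO replicate 1 was 9.2, against 19.3 to 20.6. Among the TNF receptor genes, Tnfrsf9 in KO replicate 1 was 13.8, against 7.3 to 7.7, and Tnfrsf4 in KO replicate 4 was 24.3, against 16.1 to 17.2.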

How the results depend on the processing

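Each of the 5 genes called lower, Cd72, Havcr2, Cd83, Cd276 and Cd40, kept its direction and its call under all 18 alternatives, with log2 fold changes of -4.03 to -3.67 for Cd72, -2.71 to -2.18 for Havcr2, -1.93 to -1.78 for Cd83, -2.05 to -1.55 for Cd276 and -1.27 to -0.91 for Cd40. Sign changes were seen in genes that were not called: Cd86 with library weights (0.07), Icosl under quantile normalization (0.05), with library weights (0.13), and on leaving out WT replicate 4 and KO replicate 3 together (0.19), and Rgmb under quantile normalization (0.06), edgeR (0.03) and DESeq2 (0.01). Leaving out 1 library at a time gave -0.08 to 0.09 for Icosl (positive without WT replicate 4 and without KO replicate 3) and -0.09 to 0.07 for Rgmb. The cause was not tested. The share of all genes called was 31.4% to 54.9% over the alternatives. Over the partner and further lists, 36 genes were called in the main analysis, 27 to 41 under the alternatives and 27 without WT replicate 4 and KO replicate 3. The share of all genes was 41.7% in the main analysis and 33.4% without those libraries. The partner list had 5 calls by DESeq2 and 5 with library weights, against 3. The TNF-family list had 1 call at a filter of 50 and 1 under quantile normalization, and 0 without WT replicate 4 and KO replicate 3, against 3. No pairing of the samples by the replicate numbers of WT and KO was seen, which does not exclude one in so few libraries. Correlations of same-numbered deviations ran from -0.143 to 0.172, and 2 of 8 libraries correlated best with their own number. With the number as a replicate block, limma called 6266 genes, against 7423, the 5 surface genes among them, and 29 of the listed genes, against 36. Depth limits Pdcd1lg2 and Cd40lg, which were fitted only with no filter on low values.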

Other observations

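The surface genes differed between groups in how much each contributed to their summed level per length, which ran from 1455 to 1971 normalized counts per kilobase over WT libraries and from 503.6 to 676.1 over KO libraries. Cd72 made up 21.2% to 31.2% of it in WT and 4.04% to 5.8% in KO. Cd274 went from 5.25% to 10.3% in WT to 16.1% to 23.8% in KO, and Icosl from 5.14% to 9.19% to 16.7% to 21.1%. Cd83 contributed the largest share in both groups except in WT replicate 1, where Cd72 held 31.2% and Cd83 29.7%.

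Ratios per length within a library gave a further view. Cd83 over Cd86 was 7.24 to 8.87 in WT libraries and 1.71 to 3.35 in KO libraries, without overlap. Cd86 over Cd80 lay between 1.35 and 4.53 for WT and between 2.51 and 4.03 for KO, with overlap. Cd72 over the gene of its ligand, Sema4d, lay between 1.24 and 2.01 for WT and between 0.716 and 1.08 for KO, so Cd72 was the higher of this pair in every WT library and in KO replicate 4, and the lower in KO replicates 1 to 3.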
